A study of Mus musculus with 4 samples.

Results

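The cells described here are macrophages of the fatty, inflamed mouse liver that carry RNA of Clec4f and Gpnmb and none of Timd4. They were chosen by raw counts of unique molecular identifiers (UMIs, 1 count per captured RNA molecule) in the 2 libraries of mice on a diet for nonalcoholic steatohepatitis (NASH). A barcode was a member if it held at least 200 genes and at most 10% mitochondrial UMIs, at least 5 UMIs of C1qa, C1qb and C1qc together per 1000, at least 1 of Clec4f, at least 1 of Gpnmb and 0 of Timd4. Barcodes with any UMI of Cd3d, Cd3e, Cd3g or Cd79a, or with UMIs of both Mki67 and Top2a, were left out. The rule took 472 cells, 235 in NASH library 1 and 237 in NASH library 2. They came from 1865 C1q-high cells in these libraries, from 3479 kept NASH barcodes and from 6237 kept barcodes in the series. The rule used Clec4f, Gpnmb, Timd4 and the C1q genes, so levels of these genes are given as a description and were not tested.

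The 4 libraries came from livers of C57BL/6J mice. The mice behind 2 libraries ate a control diet, and those behind the other 2 ate the Amylin liver NASH model diet. Liberase was used for digestion, with flavopiridol, a blocker of transcription, in all 4. Non-parenchymal cells that were CD45+ (leukocytes), CD146- (not endothelial) and excluded the dye Zombie NIR were sorted, so the sort sets which cells could be seen. The labels give no mouse number, age or sex and do not say that libraries came from separate mice. In the comparison of diets each p-value reflects the spread from library to library. Within NASH it reflects the spread left between sums of cell classes once the shift shared by each library is removed. Either spread may be technical.

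Kupffer cells are the resident macrophages of the liver sinusoids. Clec4f, a lectin, marks them in mice, and Timd4, a receptor for phosphatidylserine on dying cells, marks those of embryonic origin. Kupffer cells that arise later from bone marrow monocytes gain Clec4f early and Timd4 late or not at all. Gpnmb is a transmembrane glycoprotein of phagosomes and lysosomes. It is known, with Trem2 (a lipid-sensing receptor), Cd9, Spp1 and Mmp12, from the lipid-associated and scar-associated macrophages of fatty liver, fat tissue and arterial plaque.

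The members were first set against 3 other groups of C1q-high cells in the same libraries, each free of the T cell, B cell and cycling genes of the rule. There were 220 and 366 Clec4f+ Timd4- Gpnmb- cells, 112 and 208 Clec4f+ Timd4+ cells and 122 and 134 Clec4f- Timd4- Gpnmb+ cells in NASH libraries 1 and 2. A further 92 and 128 Clec4f- Timd4- Gpnmb- cells shared in the estimate of the spread, and 6 and 5 Clec4f- Timd4+ cells were not compared. The members held a median of 9231 and 8751 UMIs and 2407 and 2334 genes per cell. The Gpnmb- cells beside them held 7357 and 7367.5 UMIs, and a deeper cell meets a rule of 1 UMI more easily. Median mitochondrial shares of the members were 3.79% and 3.31%. Libraries shared 2 to 8 barcodes per pair, and 1 barcode was a member in both NASH libraries. Among the highest scores of Scrublet, a doublet caller, were 8 and 2 members, which stayed in.

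Near the thresholds, 14 members had 5 to under 6 C1q UMIs per 1000, and 4 barcodes with 4 to under 5 would otherwise have been members. Exactly 1 Clec4f UMI carried 130 members, exactly 1 Gpnmb UMI carried 184, and 33 had exactly 1 of each. A further 47 cells were kept out by a single Timd4 UMI and 51 by 2 or more. A lymphoid UMI kept out 77 and the cycling genes 28. At the other end, 84 members had at least 10 Clec4f and at least 3 Gpnmb UMIs.

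All members hold Clec4f UMIs by the rule, and their number varied widely. In NASH library 1 the members with 1 to 2 Clec4f UMIs were 37.4%, those with 3 to 9 were 20.9% and those with 10 or more were 41.7%. In NASH library 2 these shares were 32.5%, 16.5% and 51.1%. Of the Clec4f+ Timd4- Gpnmb- cells 65.5% and 67.5% had 10 or more, and of the Clec4f+ Timd4+ cells 88.4% and 94.2%. Median Clec4f UMIs rose in the same order, from 7 and 11 in the members to 16 and 20.5 and to 31 and 34.5.

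Droplets also take up free RNA, and B cells, which do not make Clec4f or Gpnmb, give a rough guide to how much. The B cells here are C1q-low barcodes with any Cd79a UMI, so doublets and other cells with a stray Cd79a UMI may be among them. In control library 1 their 6 endothelial markers summed to 926 per 1000000 UMIs, beside 2121 for their 5 B cell markers. Of the C1q-low Cd79a+ B cells, 16 of 53 and 32 of 111 (30.2% and 28.8%) held at least 1 Clec4f UMI, and 18.9% and 12.6% held at least 1 Gpnmb UMI, at median depths of 5806 and 5747 UMIs. After each cell was thinned to 3000 UMIs (6 and 17 B cells and 9 and 6 members were shallower and left out), Clec4f was seen in 12.8% and 10.6% of B cells and in 74.8% and 80.5% of members. Thinned Gpnmb shares were 10.6% and 5.32% of B cells and 64.6% and 60.6% of members. The members were chosen at full depth to hold both genes and the B cells were not. Higher thinned shares in the members therefore follow from the rule. No NASH B cell held 10 or more Clec4f UMIs (0 of 53 and 0 of 111, with exact upper 95% limits of 6.72% and 3.27%). Gpnmb gave less separation: 1 of 53 and 1 of 111 B cells held 10 or more Gpnmb UMIs, and a further 3 and 2 held 3 to 9. Only 1 to 2 Gpnmb UMIs were held by 113 of 235 and 138 of 237 members. Members with 1 or 2 Clec4f UMIs held numbers that 14 and 26 of these B cells also held.

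**Figure D1:**
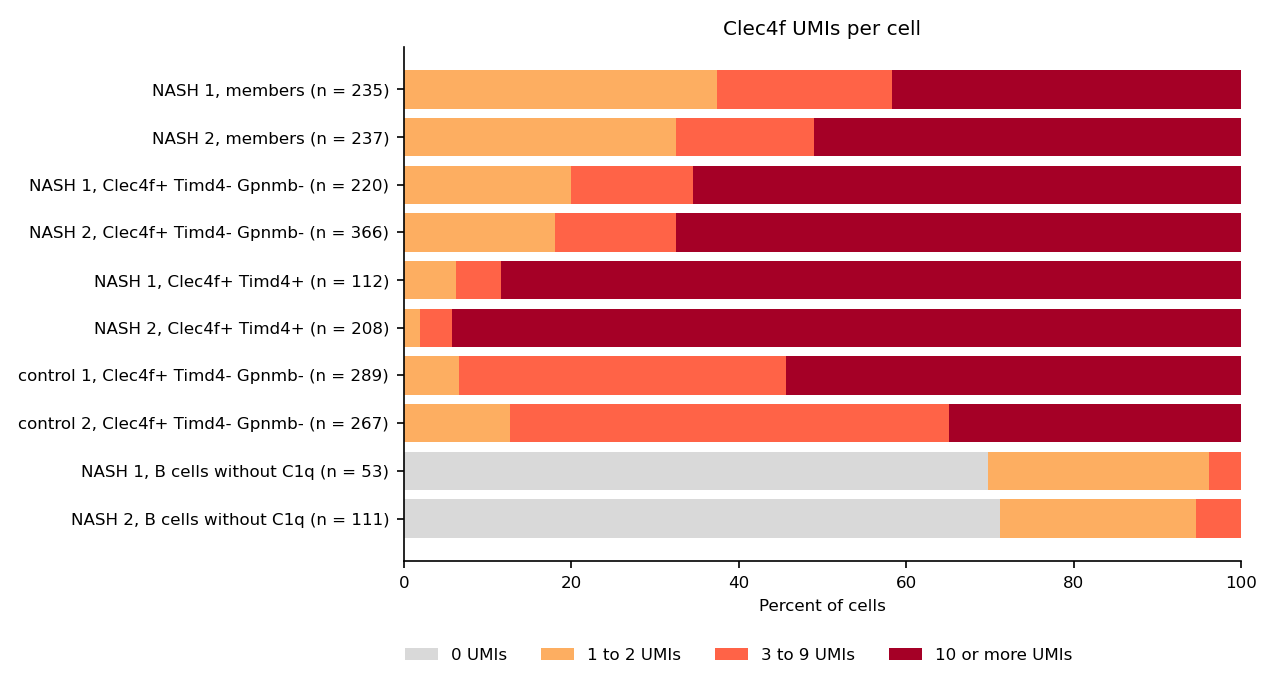
Share of cells (percent, x axis) by number of Clec4f UMIs per cell, for each class and library, with the number of cells in brackets. Members with 1 to 2 UMIs made up 37.4% and 32.5%, more than in the Clec4f+ Timd4- Gpnmb- and Clec4f+ Timd4+ cells, and no B cell without C1q in the NASH libraries held 10 or more.

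Cells that met the rule were common in the NASH libraries and rare in the controls. They made up 29.9% (exact 95% interval 26.7 to 33.2) of C1q-high cells in NASH library 1 and 22.0% (19.5 to 24.6) in NASH library 2. The same rule took 0 of 988 C1q-high cells in control library 1, which allows a share of up to 0.304% by a limit of 3 counts and 0.373% by the exact one, and 2 of 860 (0.233%, interval 0.0282 to 0.838) in control library 2. These intervals cover counting error only. Control libraries were shallower (medians of 3204.5 and 2837 UMIs per C1q-high cell, against 8225 and 7765.5). With cells thinned to 3000 UMIs and the marker counts of the rule applied again, the shares were 15.7% and 11.9% in NASH. They were 0 of 557 and 2 of 402 (0.498%) in the controls. At least 10 Clec4f UMIs left 12.5% and 11.2% of NASH C1q-high cells and 0 of 988 and 0 of 860 in the controls. With at least 3 Clec4f and 2 Gpnmb UMIs the NASH shares were 11.6% and 7.05%.

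Among the Clec4f+ Timd4- cells of the NASH libraries 51.6% and 39.3% were Gpnmb+. Among Clec4f+ Timd4+ cells 40.2% and 25.5% were, and among Clec4f- Timd4- cells 57.0% and 51.1%. Gpnmb UMIs were therefore found with and without Clec4f and Timd4. Classed at full depth and then thinned to 3000 UMIs, Clec4f+ Timd4+ cells held Gpnmb in 18.7% and 15.0% of cells, against the B cell shares of 10.6% and 5.32% above. In the control libraries 2 of 692 and 1 of 568 Clec4f+ Timd4+ cells held a Gpnmb UMI.

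The genes that name these cells are given here in CPM, counts per 1000000 UMIs of the summed cells of a class. Gpnmb (mm10, chr6:49036546-49070929, + strand) stood at 553 and 415 CPM in the members of NASH libraries 1 and 2, and at 601 and 579 in the Clec4f- Timd4- Gpnmb+ cells. Clec4f (chr6:83644542-83656187, - strand) stood at 1465 and 2161 in the members, below 2923 and 3323 in the Clec4f+ Timd4- Gpnmb- cells. Mmp12 (chr9:7344381-7369499, + strand), the macrophage elastase that cuts elastin in the matrix, stood at 1213 and 1166 in the members. The next highest values were 807 and 832, in the Clec4f- Timd4- Gpnmb+ cells, and the groups, of 2 sums each, did not overlap. Trem2 (chr17:48346401-48354147, + strand) stood at 1215 and 1098 in the members and higher, at 1501 and 1340, in the Clec4f- Timd4- Gpnmb+ cells. Trem2 had a UMI in 97.0% and 95.8% of members (88.9% and 85.3% thinned, against 19.1% and 17.0% of B cells). Pan-macrophage genes were present in every class, and Adgre1, which encodes F4/80, stood at 438 and 438 CPM in the members.

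**Figure D2:**
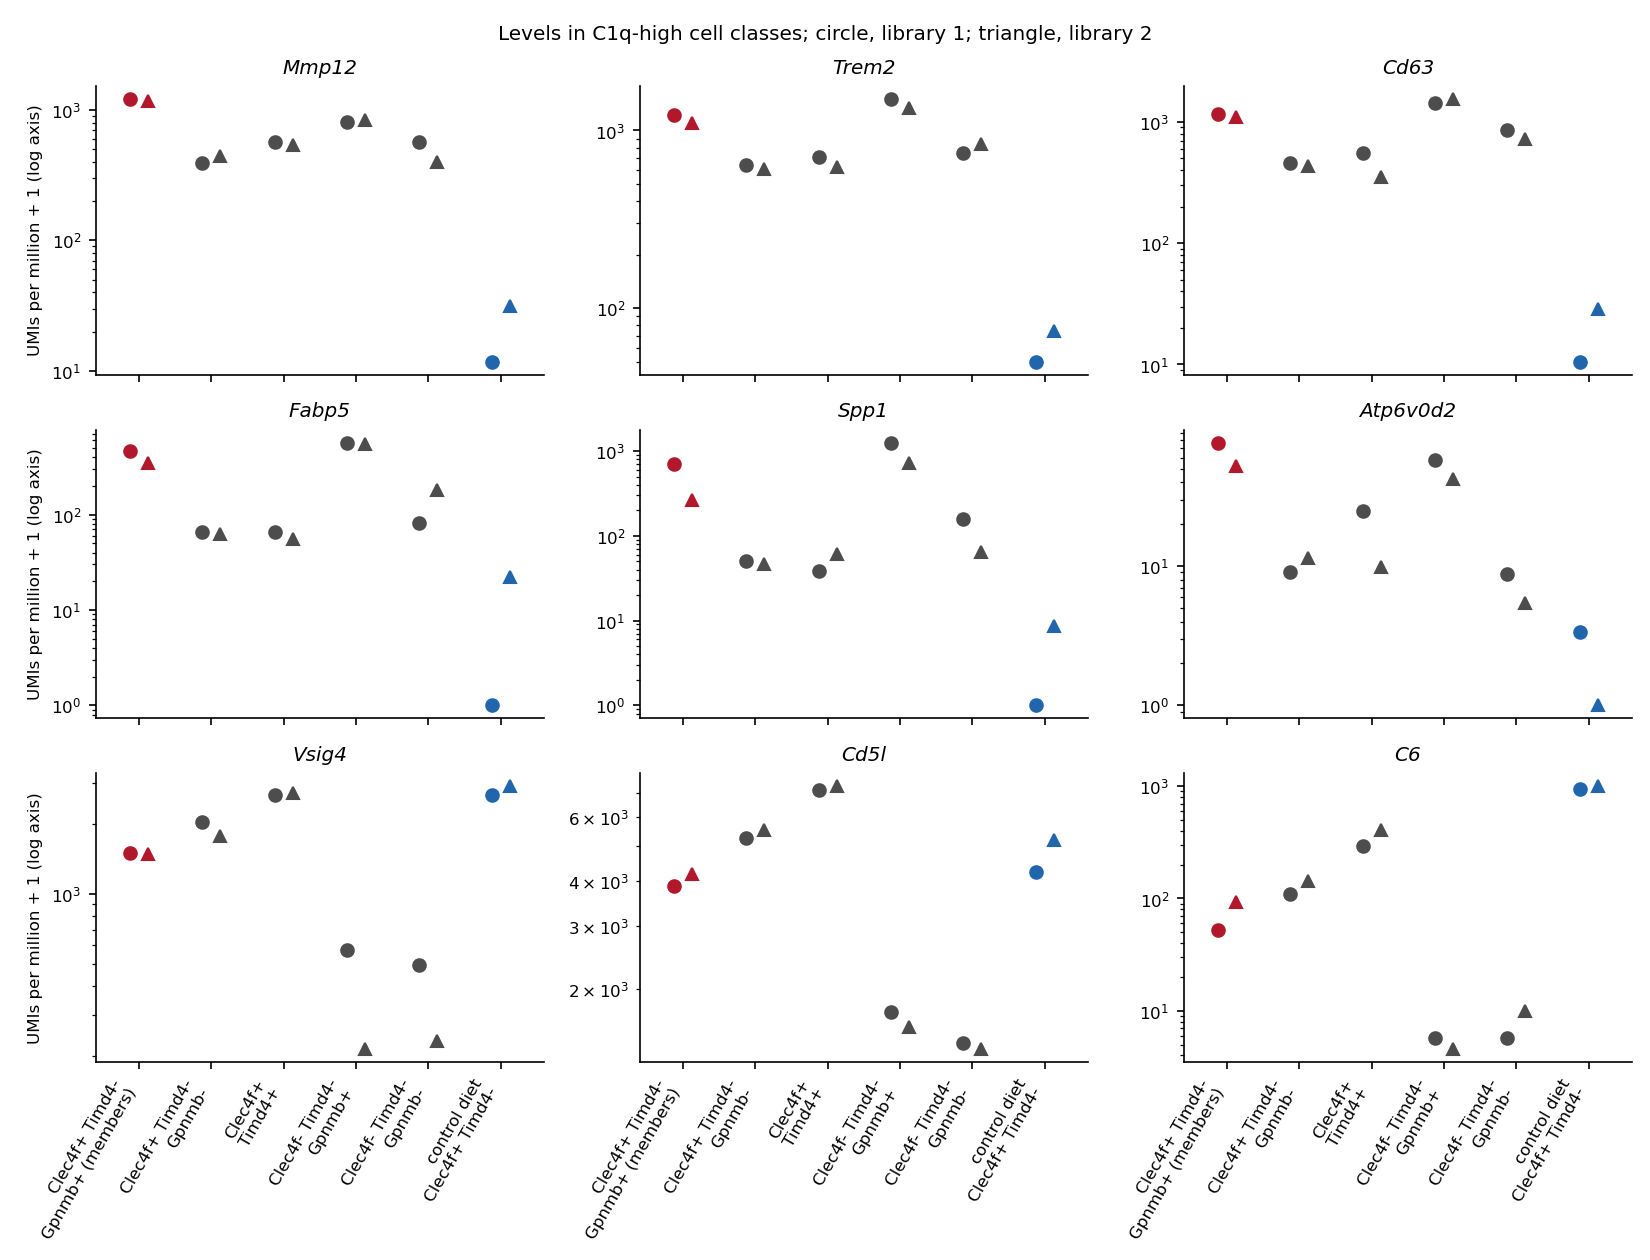
CPM plus 1 (log y axis, its range set for each gene) of 9 genes in the classes of C1q-high cells; each point is the sum of a class in 1 library, circles for library 1 and triangles for library 2, red for members, grey for other NASH cells and blue for control cells. Mmp12 was highest in the members, Spp1 and Fabp5 were high in both Gpnmb+ classes, and Vsig4, Cd5l and C6 were higher in the Timd4+ cells than in the members.

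Which genes go with Gpnmb among cells that share Clec4f and lack Timd4 was asked by setting the members against the Clec4f+ Timd4- Gpnmb- cells. Genes of the lipid- and scar-associated program were higher in the members. Of 30 listed genes tested 24 were higher and 0 lower by edgeR's quasi-likelihood test (Benjamini-Hochberg adjusted p under 0.05), with a median log2 difference of 0.62. Over all 8374 genes 171 were higher (2.04%) and 153 lower (1.83%), 3.87% in all, with a median of -0.01. The number called depended on the library term of the fit: without it 51 genes were higher and 30 lower, with 14 of the 30 listed genes higher and 0 lower.

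Spp1 encodes osteopontin, a secreted phosphoprotein of the matrix. It stood at 710 and 264 CPM in the members of NASH libraries 1 and 2 and at 49.9 and 44.9 in the Gpnmb- cells. Both member values were higher, by amounts that differed between the libraries (log2 ratios of 3.83 and 2.52). The fitted log2 difference was 3.22 (SE 0.466, edgeR adjusted p = 0.0493). Fabp5, a carrier of fatty acids, stood at 466 and 350 CPM against 64.3 and 61.7, a log2 difference of 2.70 (SE 0.319, edgeR adjusted p = 0.026). Atp6v0d2, a subunit of the proton pump that acidifies lysosomes, stood at 75.8 and 51.7 against 8.03 and 10.5, a log2 difference of 2.68 (SE 0.219). Cd63, a tetraspanin of lysosomes and secreted vesicles, stood at 1153 and 1087 against 454 and 430, a log2 difference of 1.35 (SE 0.167, edgeR adjusted p = 0.0248). The groups, of 2 sums each, did not overlap in any of these genes, which were named for their large differences.

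Mmp12 differed by 1.52 (SE 0.136) and Trem2 by 0.90 (SE 0.061) on the log2 scale. Among other genes of the list, Itgax, the integrin CD11c, differed by 1.00, Ctsd, the lysosomal protease cathepsin D, by 0.71, and the tetraspanin Cd9 by 0.62. Lpl, which releases fatty acids from lipoproteins, differed by 0.62, the scavenger receptor Cd36 by 0.51, the lectin Lgals3 by 0.50 and the lipid droplet protein Plin2 by 0.50. These members of the list all passed the test.

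Promoters of genes that name these cells are shown because the lipid- and scar-associated genes were higher together, and Vsig4 and Cd5l of resident Kupffer cells are shown for contrast. Each is the 250 bases before a start site in RefSeq (GRCm38.p6), read 5′ to 3′ on the gene's strand. Capitals mark matches, on either strand, to CACGTG (the E-box core bound by TFEB and related factors), TGANTCA (the AP-1 site) or GAGGAAGT (a site of PU.1 and other ETS factors). No match overlapped another.
Gpnmb, chr6:49036268-49036517, + strand: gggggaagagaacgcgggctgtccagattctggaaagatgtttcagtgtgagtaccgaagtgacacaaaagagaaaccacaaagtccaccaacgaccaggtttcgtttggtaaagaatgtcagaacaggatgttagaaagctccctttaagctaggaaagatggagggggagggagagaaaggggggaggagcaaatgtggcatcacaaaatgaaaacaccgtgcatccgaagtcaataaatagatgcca
Trem2, chr17:48346151-48346400, + strand: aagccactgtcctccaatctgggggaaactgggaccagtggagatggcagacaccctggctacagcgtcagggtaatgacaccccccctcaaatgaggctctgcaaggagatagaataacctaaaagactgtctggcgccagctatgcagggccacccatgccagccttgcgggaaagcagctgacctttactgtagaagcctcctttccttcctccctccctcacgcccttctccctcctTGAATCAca
Mmp12, chr9:7344147-7344396, + strand: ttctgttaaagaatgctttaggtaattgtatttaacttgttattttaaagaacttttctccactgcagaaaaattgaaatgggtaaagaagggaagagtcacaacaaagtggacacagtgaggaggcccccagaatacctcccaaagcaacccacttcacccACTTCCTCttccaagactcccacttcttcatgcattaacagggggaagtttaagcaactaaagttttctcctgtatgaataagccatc
Spp1, chr5:104434861-104435110, + strand: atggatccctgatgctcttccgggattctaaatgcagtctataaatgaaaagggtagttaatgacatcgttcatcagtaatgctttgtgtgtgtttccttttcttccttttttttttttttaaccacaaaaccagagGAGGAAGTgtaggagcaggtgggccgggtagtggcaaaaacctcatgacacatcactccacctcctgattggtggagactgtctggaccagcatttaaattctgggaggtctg
Vsig4, chrX:96293439-96293688, - strand: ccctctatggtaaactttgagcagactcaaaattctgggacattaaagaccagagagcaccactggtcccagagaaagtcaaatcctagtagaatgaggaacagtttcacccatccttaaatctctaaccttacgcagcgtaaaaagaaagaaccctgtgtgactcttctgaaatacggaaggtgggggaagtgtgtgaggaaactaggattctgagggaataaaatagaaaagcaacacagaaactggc
Cd5l, chr3:87357631-87357880, + strand: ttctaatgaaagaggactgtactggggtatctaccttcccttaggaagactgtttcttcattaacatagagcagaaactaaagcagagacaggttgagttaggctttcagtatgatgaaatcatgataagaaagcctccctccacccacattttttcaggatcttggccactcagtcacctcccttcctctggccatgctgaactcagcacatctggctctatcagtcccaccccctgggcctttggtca

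TGANTCA lay 9 bases before the Trem2 start, GAGGAAGT 88 bases before the Mmp12 start and 113 before the Spp1 start. A second RefSeq start of Mmp12 had TGANTCA 44 bases before it, and a second start of Spp1 had none of the motifs in its window. None of the 3 motifs was found in the windows of Gpnmb, Vsig4 or Cd5l. TGANTCA was in 6 of 27 windows of the lipid- and scar-associated list (22.2%, 22 genes matched), in 1 of 21 of the Kupffer identity list (19 genes matched), in 6.75% of all 32851 windows and in 4.28% of the 8336 windows of genes tested. CACGTG was in 2 of 27 (7.41%), 0 of 21, 6.02% and 8.84%, and GAGGAAGT in 2 of 27 (7.41%), 0 of 21, 2.44% and 2.87%. These are matches of letters and no measure of binding.

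Around this program, genes of neighbouring functions were also higher in the members than in the Gpnmb- cells. Of 28 genes of the lysosome 8 were higher and 0 lower, of 17 for lipid uptake and storage 6 and 0, and of 19 matrix and fibrosis mediators 6 and 0. Over all genes 2.04% were higher and 1.83% lower. Without the library term 3, 2 and 2 genes of these lists were higher and 0 lower. The lists share genes with the first (Ctsd, Fabp5 and Mmp12 among them). Outside it, Adam8, a membrane protease, stood at 35.1 and 29.3 CPM against 6.31 and 7.66 (log2 difference 2.19), and Mmp14, a membrane collagenase, at 72.3 and 74.6 against 43.0 and 41.8 (0.83). In the glycolysis list 4 of 16 were higher (0 without the library term), among them Pkm at a log2 difference of 0.41. Receptors of complement fragments, C5ar1 (0.66) and C3ar1 (0.57), were higher, while the secreted proteins C6 (-0.83), C4b (-1.23) and properdin, Cfp (-0.75), were lower. In that list of 10, 4 were higher and 4 lower (1 and 1 without the library term).

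Some genes of recruited cells were higher and others lower. H2-M2, a nonclassical MHC class I gene, stood at 125 and 81.0 CPM in the members against 37.9 and 25.4 (log2 difference 1.75). Lgals1, galectin 1, stood at 471 and 367 against 186 and 153 (1.31), and S100a4, a calcium-binding protein, at 96.3 and 56.7 against 35.0 and 33.4 (1.08). Plac8 (-0.94), known from monocytes, and Ifitm6 (-1.38) and Ifitm3 (-0.78), membrane proteins induced by interferon, were lower. Of 23 genes on the list of recruited macrophages and monocytes 5 were higher and 3 lower, with a median of 0.42. Without the library term 2 were higher and 0 lower. The shares over all genes were 2.04% higher and 1.83% lower. Outside the lists, Ptafr, the receptor for platelet-activating factor, differed by 1.32, the adaptor Blnk by 1.03 and the transcription factor Mef2c by 1.02. Also outside them, Adgre4, an adhesion receptor of macrophages, differed by -1.04, Crip2 by -0.98, the sulfotransferase Sult1a1 by -0.94, the inhibitory lectin Siglece by -0.84 and the tetraspanin Cd81 by -0.78.

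Kupffer identity genes were lower in the members than in the Gpnmb- cells. Of 22 tested 10 were lower and 0 higher, with a median of -0.65, and 3 were lower and 0 higher without the library term. Over all genes 1.83% were lower and 2.04% higher. Cd5l, a secreted scavenger protein, stood at 3857 and 4180 CPM against 5245 and 5523 (log2 difference -0.41, SE 0.0521). Cdh5, VE-cadherin, stood at 90.8 and 85.6 against 173 and 147 (-0.84), and Clec1b, the receptor CLEC-2, at 599 and 792 against 765 and 922 (-0.27). For Clec1b the 2 groups overlapped across libraries, and the ratio was lower within each. Vsig4, a complement receptor, stood at 1503 and 1486 against 2031 and 1780 and did not pass (log2 difference -0.33, edgeR adjusted p = 0.844). Folr2, a folate receptor, stood at 475 and 577 against 940 and 911 and did not pass either (-0.81, edgeR adjusted p = 0.227).

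Immediate-early and stress genes, which respond fast to signals and to handling, had 1 of 20 higher and 5 lower in the members than in the Gpnmb- cells, with a median of -0.42. The shares over all genes were 2.04% higher and 1.83% lower. Without the library term 0 genes of this list passed in either direction, and with at least 10 Clec4f UMIs in both classes 1 was higher and 1 lower. Klf2, a transcription factor of quiescent cells, stood at 42.4 and 68.2 CPM against 100 and 145 (-1.15). The AP-1 genes Fosb (-1.22), Fos (-0.50) and Junb (-0.35) were lower, Fos at 74.9 and 85.6 CPM against 114 and 115. Atf3 was the gene that was higher (0.53), with groups that overlapped across libraries. Of 15 transcription factors of the Kupffer lineage 1 was higher and 3 lower (0 and 0 without the library term). Rbpj, which relays Notch signals, stood at 36.4 and 24.3 CPM against 20.1 and 15.7 (0.78). Rxra, the partner of LXR and other nuclear receptors, stood at 48.4 and 51.2 against 66.0 and 72.1 (-0.46). Id3, a factor of Kupffer cell development, differed by -0.41, and its groups overlapped across libraries. Of 12 genes of iron and heme 3 were higher and 1 lower (1 and 0 without the library term), among them Fth1, the ferritin heavy chain, at 8683 and 8113 against 5771 and 5758 (0.55).

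Clec4f itself differed between these classes, so the comparison was repeated with at least 10 Clec4f UMIs in both. This left 98 and 121 members and 144 and 247 Gpnmb- cells, so fewer cells entered the test. Over all genes tested 136 then passed in either direction, against 324 without this minimum. The lipid- and scar-associated list had 15 of 29 genes higher and 0 lower, with a median of 0.59. The Kupffer identity list had 1 of 22 lower and 0 higher, with a median of -0.30. Spp1 fell to a log2 difference of 1.11 (edgeR adjusted p = 0.34), and Fabp5 (2.37, adjusted p = 0.0941), Mmp12 (1.82, 0.069), Cd63 (1.44, 0.0596) and Lgals1 (1.32, 0.278) no longer passed. Atp6v0d2, H2-M2, Itgax and Trem2 passed.

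**Figure D3:**
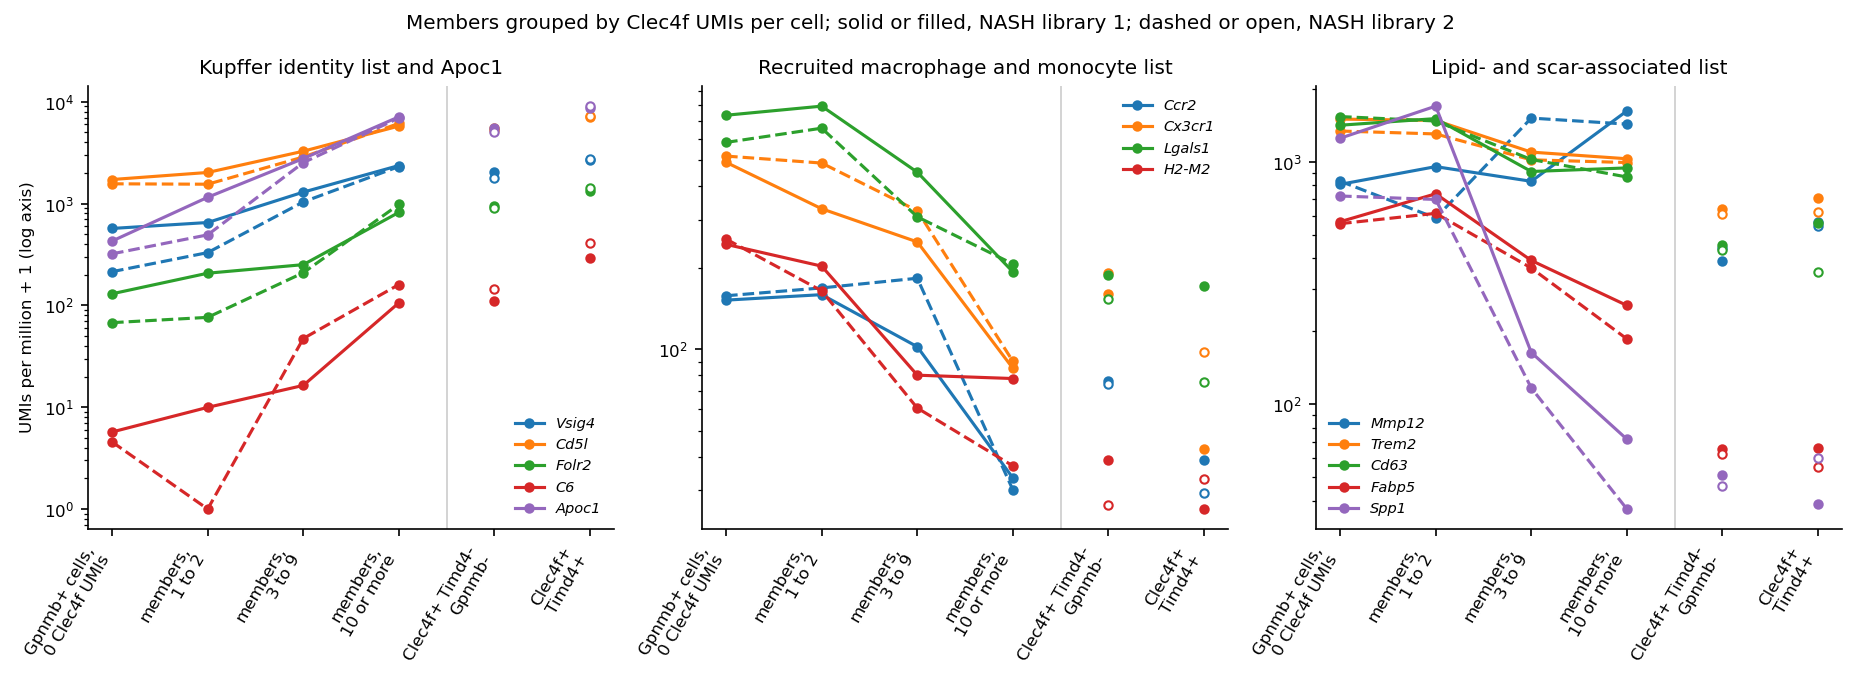
CPM plus 1 (log y axis) in Clec4f- Timd4- Gpnmb+ cells, in members by Clec4f UMIs per cell and, right of the line, in the other Clec4f+ cells; solid lines and filled points are NASH library 1, dashed lines and open points NASH library 2. From members with 1 to 2 Clec4f UMIs to those with 10 or more, Vsig4 went from 651 and 329 to 2366 and 2313 and Cx3cr1 from 330 and 487 to 83.9 and 89.1.

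The members were not uniform, and their other genes went with the number of Clec4f UMIs. The groups by Clec4f UMIs were made from a gene of the rule, so these levels are a description with no test. Vsig4 stood at 651 and 329 CPM in members with 1 to 2 Clec4f UMIs, against 569 and 214 in the Clec4f- Timd4- Gpnmb+ cells and 2366 and 2313 in members with 10 or more. C6 stood at 8.97 and 0, against 4.71 and 3.56 and against 105 and 159. Apoc1, an apolipoprotein, stood at 1154 and 493, against 428 and 320 and against 7125 and 6937. Genes of recruited cells ran the other way. The chemokine receptor Ccr2 stood at 158 and 167 CPM in members with 1 to 2 Clec4f UMIs, at 101 and 182 with 3 to 9 and at 32.4 and 29.1 with 10 or more. Cx3cr1, the fractalkine receptor, stood at 330 and 487, at 248 and 324 and at 83.9 and 89.1.

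The lipid- and scar-associated genes did not all follow the same course along Clec4f. Spp1 stood at 1697 and 699 CPM in members with 1 to 2 Clec4f UMIs, at 163 and 116 with 3 to 9 and at 70.8 and 36.0 with 10 or more. The Gpnmb- cells stood at 49.9 and 44.9, but here and below they were not limited by their number of Clec4f UMIs. The comparison with 10 or more in both classes is given above. Fabp5 fell over the same groups of members from 738 and 613 to 391 and 364 and to 255 and 185. The last were still above the 64.3 and 61.7 of the Gpnmb- cells. Mmp12 stood at 955 and 586, at 831 and 1515 and at 1622 and 1431, so its highest values were in members with more Clec4f. Trem2 stood at 1482 and 1303, at 1096 and 1019 and at 1029 and 993, above the 639 and 608 of the Gpnmb- cells in each group. Atp6v0d2 stood at 65.7 and 56.6 in members with 10 or more Clec4f UMIs, against 8.03 and 10.5 in the Gpnmb- cells.

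Timd4+ Clec4f+ cells are the class with the marker of embryonic Kupffer cells, and against them the members differed in more genes. Of 8374 genes 293 were higher in the members (3.5%) and 363 lower (4.33%), 7.83% in all, by the same edgeR test, and 158 were higher and 151 lower without the library term. The lipid- and scar-associated list had 22 of 30 higher and 0 lower, with a median of 0.57. Spp1 differed by 3.11, Fabp5 by 2.83, Atp6v0d2 by 2.11, Fabp4 by 2.04, Itgax by 1.59, Cd63 by 1.38, Mmp12 by 1.14 and Trem2 by 0.84 on the log2 scale. Pparg, the nuclear receptor that drives Fabp4 in macrophages, stood at 32.1 and 29.3 CPM against 13.3 and 13.3 (1.28).

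The Kupffer identity list had 19 of 22 genes lower in the members than in the Timd4+ cells and 0 higher, with a median of -1.15. Over all genes 4.33% were lower and 3.5% higher. Marco, a scavenger receptor, stood at 3.00 and 1.37 CPM in the members and at 86.2 and 71.5 in the Timd4+ cells (log2 difference -5.04, SE 0.385). C6 stood at 50.9 and 91.5 against 290 and 409 (-2.27, SE 0.113). Fcna, a ficolin of the lectin pathway of complement, stood at 143 and 165 against 471 and 905 (-2.10), and the chemokine Ccl24 at 132 and 103 against 459 and 559 (-2.10). Folr2 stood at 475 and 577 against 1324 and 1438 (-1.36, edgeR adjusted p = 0.0394). Slc40a1, the iron exporter ferroportin, stood at 503 and 450 against 1192 and 1021 (-1.18). Cd5l differed by -0.80 and Pcolce2, a procollagen-binding protein, by -1.59. Outside that list, C4b (-2.15), Cd300e (-1.59), Ifitm6 (-1.58) and Apoc1 (-1.07) were also lower. In all of these the 2 groups did not overlap, which is a weak criterion with 2 sums each. Many of these genes were also named for their large differences.

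Antigen presentation genes were higher in the members than in the Timd4+ cells. Of 15 genes of MHC class II presentation 7 were higher and 2 lower, with a median of 0.55. Over all genes 3.5% were higher and 4.33% lower. H2-Ab1, a class II chain, stood at 7978 and 7156 CPM against 4021 and 2889 (log2 difference 1.19, SE 0.0708). Cd74, the invariant chain, stood at 17845 and 17330 against 8925 and 7559 (1.14), and H2-Eb1 differed by 1.25 and H2-Aa by 1.16. Against the Gpnmb- cells 0 of these 15 genes were higher and 2 lower. Of the 23 genes of recruited macrophages and monocytes 9 were higher and 3 lower. Ccr2 stood at 93.8 and 95.6 CPM against 37.9 and 28.3 (1.60), Cx3cr1 at 210 and 252 against 41.7 and 97.0 (1.69), and Lgals1 differed by 1.90 and H2-M2 by 1.83. Lat2, an adaptor protein (2.16), Mef2c (2.08) and Anxa1, annexin A1 (1.66), were higher too.

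With at least 10 Clec4f UMIs in both classes, 106 genes were higher and 94 lower against the Timd4+ cells. This minimum left 98 and 121 of the 235 and 237 members and 99 and 196 Timd4+ cells. Counts of genes called are therefore not like for like with those above. The lipid- and scar-associated list kept a median of 0.53, with 13 of 29 higher and 0 lower, and the Kupffer identity list had 7 of 22 lower and 0 higher (median -0.60). For recruited macrophages and monocytes 3 genes were higher and 4 lower (median -0.07). Ccr2 then differed by 0.33 (edgeR adjusted p = 0.718), Cx3cr1 by 0.53 (0.5) and Spp1 by 0.24 (0.905). H2-Ab1 (1.06, edgeR adjusted p = 0.0495) and Cd74 (0.90) passed.

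Clec4f- Timd4- Gpnmb+ cells share Gpnmb with the members, and the question here was what goes with Clec4f among Gpnmb+ cells. In the members 224 of 8374 genes were higher (2.67%) and 126 lower (1.5%), 4.18% in all, by the edgeR test, and 88 were higher and 35 lower without the library term. Kupffer identity genes were higher in the members, 12 of 22 with 0 lower and a median of 1.97. C6 stood at 50.9 and 91.5 CPM against 4.71 and 3.56 (log2 difference 4.06, SE 0.283). Pcolce2 stood at 27.4 and 46.7 against 2.83 and 0.89 (4.26), Folr2 at 475 and 577 against 129 and 66.7 (2.41), and Cd5l at 3857 and 4180 against 1724 and 1565 (1.27, SE 0.0553). Cdh5 (2.21), the potassium channel Kcna2 (2.17), Paqr9 (2.03), Slc40a1 (1.42) and Clec1b (0.67) were higher as well. Vsig4 stood at 1503 and 1486 against 569 and 214 and did not pass (1.96, edgeR adjusted p = 0.151). Nr1h3, the liver X receptor LXRα that helps set Kupffer cell identity, stood at 298 and 288 against 169 and 172 (0.76), and Scd1, a desaturase and known LXR target, at 140 and 113 against 36.8 and 24.0 (2.04). Of 15 LXR targets and cholesterol efflux genes 5 were higher and 0 lower, and among them Apoc1 stood at 3997 and 4215 against 428 and 320 (3.44). Outside the lists, Csrp1 (1.95), Tspan15 (1.70) and the fatty acid carrier Fabp7 (1.51) were higher.

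The lipid- and scar-associated genes were at similar or lower levels in the members than in the Clec4f- Gpnmb+ cells. Over all genes 2.67% were higher in the members and 1.5% lower. Of 30 genes on the list 1 was higher and 8 lower, with a median of -0.06. Ctsl, cathepsin L, was the gene that was higher (0.47). Cd9 stood at 493 and 381 CPM against 777 and 561 (-0.63), and Syngr1 (-1.30), Fabp4 (-0.82), Lgals3 (-0.37) and Trem2 (-0.32) were lower. The groups overlapped across libraries for Fabp4, at 38.5 and 79.6 against 77.3 and 127. Mmp12 did not pass (0.52, edgeR adjusted p = 0.136), nor did Cd63 (-0.42, 0.383), Fabp5 (-0.48, 0.591) or Spp1 (-1.10, 0.305). Genes of recruited macrophages and monocytes were lower, 9 of 23 with 2 higher and a median of -0.67. Cx3cr1 stood at 210 and 252 CPM against 490 and 517 (-1.15), Ccr2 at 93.8 and 95.6 against 151 and 157 (-0.72) and H2-M2 at 125 and 81.0 against 243 and 254 (-1.30). F13a1, coagulation factor XIII of monocytes, stood at 3.00 and 10.5 against 24.5 and 23.1 (-1.85). H2-Ab1 (-0.42) and Cd74 (-0.54) were lower, as were Cd93 (-1.41), the inhibitory Fc receptor Fcgr2b (-1.21), Cyp4f18 (-1.20), Ccl5 (-1.06) and Tmem176a (-0.99).

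Members limited to those with at least 10 Clec4f UMIs are the end of a gene of the rule that lies furthest from the Clec4f- cells, so their list medians against the Clec4f- Gpnmb+ cells are a description with no test. The Kupffer identity list stood at 2.46, the recruited macrophage and monocyte list at -1.73 and the lipid- and scar-associated list at -0.11.

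**Figure D4:**
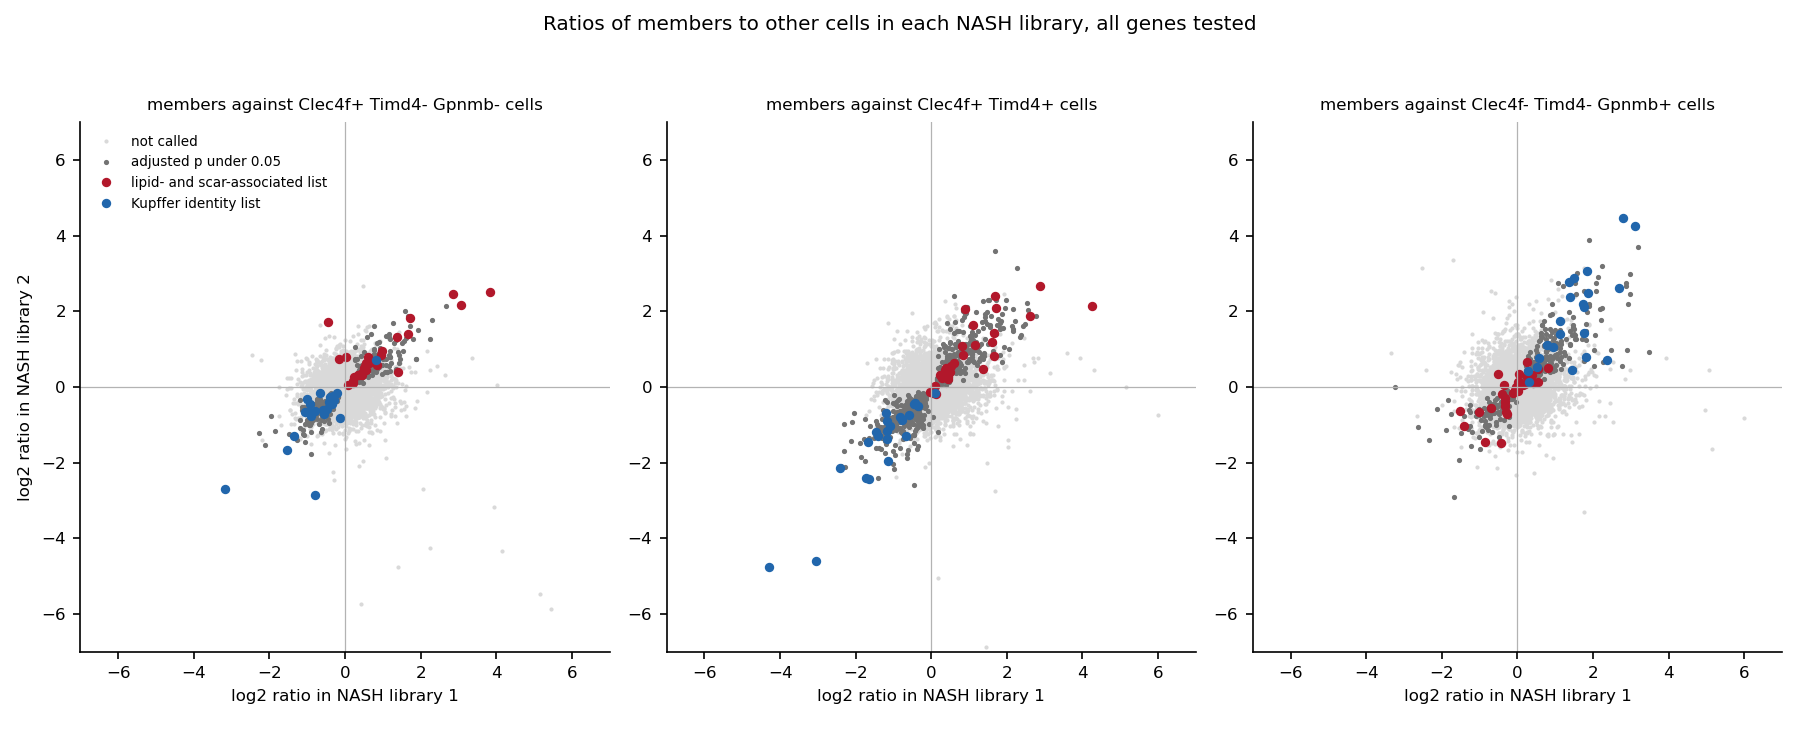
Log2 ratio of members to the other class in NASH library 1 (x axis) and NASH library 2 (y axis) for all 8374 genes tested, 1 panel per comparison; dark grey points passed the edgeR test, red points are the lipid- and scar-associated list and blue points the Kupffer identity list. Red points lie mostly in the upper right of the first 2 panels, and blue points in the lower left of those panels and in the upper right of the third. The 3 comparisons share the members, so the panels are not independent.

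The diet comparison set the members against 289 and 269 C1q-high Clec4f+ Timd4- cells of the control libraries, with any Gpnmb. These cells held Gpnmb at 0 and 4.59 CPM, so diet and Gpnmb cannot be told apart here. The control cells were shallower (medians of 2544 and 2001 UMIs for the Gpnmb- among them), and their median mitochondrial shares were 6.81% and 7.08%. The control Clec4f+ Timd4+ cells, 692 and 568 in number, were deeper than these, at medians of 3464 and 3213.5 UMIs. How many of the shallow Timd4- control cells had Timd4 RNA that was not captured was not tested. By edgeR 1998 of 8372 genes were higher in the members (23.9%) and 1450 lower (17.3%), 41.2% in all. This split depended on the scaling. With library size alone and no TMM factors 953 were higher and 2962 lower, and the median of all genes tested moved from 0.04 to -0.43.

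In this comparison the lipid- and scar-associated list had 23 of 29 genes higher and 0 lower, with a median of 2.31 (22 higher, 1 lower and 1.83 with library size alone). Cd63 stood at 1153 and 1087 CPM in the members and at 9.55 and 27.6 in the control cells (log2 difference 6.45, SE 0.256). Mmp12 stood at 1213 and 1166 against 10.7 and 30.6 (6.38, SE 0.257), and Trem2 at 1215 and 1098 against 48.9 and 73.5 (4.73, SE 0.2). Cd9 differed by 5.23 and Mmp13, a collagenase, by 5.69. Gdf3, a growth factor of the TGF-beta family, had 275 UMIs in the members and 0 in the control cells, at least 30.2-fold higher if the control group is set to its floor of 3 UMIs in all. Spp1 stood at 710 and 264 against 0 and 7.66 and did not pass (edgeR adjusted p = 0.064), nor did Fabp5 at 466 and 350 against 0 and 21.4 (0.0537). Spp1 passed without either NASH library and Fabp5 without either control library, when a single sum was left in that diet. With at least 10 Clec4f UMIs in both groups the list had 23 of 27 higher and 0 lower (median 2.40). Apoe, an apolipoprotein that macrophages secrete, stood at 54297 and 57674 against 16017 and 10334 (2.56).

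Genes of recruited macrophages and monocytes were higher, 17 of 21 with 1 lower. The shares over all genes were 23.9% higher and 17.3% lower. H2-M2 differed by 5.11, Olfml3 by 4.84, Lgals1 by 3.90, Ms4a7 by 3.90, Cx3cr1 by 2.88 and Ccr2 by 2.26. MHC class II presentation had 10 of 14 higher and 1 lower, with H2-Ab1 at 7978 and 7156 CPM against 2287 and 1729 (2.38). Interferon-stimulated genes had 12 of 19 higher and 0 lower, among them Isg15 (1.89) and Ifi44 (2.54). Glycolysis had 10 of 16 higher and 2 lower, among them Gapdh (2.04) and Ldha (2.02). Oxidative phosphorylation had 19 of 21 higher and 0 lower, among them Uqcrc1 (2.04). With library size alone these 5 lists had 15, 8, 11, 8 and 13 genes higher and 2, 1, 0, 3 and 1 lower.

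Of 20 cytokines and chemokines 11 were higher and 5 lower, against 23.9% and 17.3% of all genes. With library size alone 7 were higher and 7 lower, against 953 and 2962 of the 8372 genes. Il1rn, the interleukin 1 receptor antagonist, stood at 103 and 162 CPM in the members against 37.0 and 36.8 in the control cells (2.31). The inflammatory cytokine Il1b stood at 77.1 and 64.5 against 376 and 349 (-1.88), and Tnf at 3.43 and 5.49 against 23.9 and 15.3 (-1.69). Tnf did not pass without control library 1 (-1.28, edgeR adjusted p = 0.125) or NASH library 1 (-1.39, 0.0529). The lysosome list had 14 of 27 higher and 2 lower (10 and 5 with library size alone). Cd68, a membrane protein of lysosomes, stood at 758 and 868 against 301 and 222 (2.10).

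Many Kupffer identity genes were lower in the members than in the control cells, 16 of 22 with 3 higher (16 and 0 with library size alone). Over all genes 17.3% were lower and 23.9% higher. Cd163, the scavenger receptor for haemoglobin and haptoglobin, stood at 3.00 and 4.58 CPM against 1348 and 1343 (-7.98, SE 0.244). C6 stood at 50.9 and 91.5 against 939 and 994 (-3.29), Fcna at 143 and 165 against 1749 and 1570 (-2.95), Slc40a1 at 503 and 450 against 2767 and 3728 (-2.29) and Mrc1, the mannose receptor, at 211 and 234 against 1066 and 1248 (-1.90). The complement genes C2 (-5.31) and C4b (-4.34) and the phosphatase Ptprm (-2.81) were lower too. Clec1b (0.83), Folr2 (0.66) and Il18bp (0.67), a decoy for interleukin 18, were higher by the test. Folr2 did not pass without NASH library 2 (0.53, edgeR adjusted p = 0.072). With library size alone these 3 genes did not pass (0.36, 0.19 and 0.19). For Clec1b the CPM of the groups overlapped (599 and 792 against 604 and 479). Vsig4 was lower (-0.42, edgeR adjusted p = 0.0242) and did not pass without NASH library 1 (-0.44, 0.201) or NASH library 2 (-0.39, 0.262), nor with at least 10 Clec4f UMIs (0.0202). Cd5l stood at 3857 and 4180 against 4210 and 5195 and did not pass. Its fitted log2 difference was 0.25 (edgeR adjusted p = 0.204), although both member CPM values were lower, and it was -0.23 with library size alone. Without control library 2 it was 0.38 and passed (edgeR adjusted p = 0.0191). Marco differed between the control libraries themselves, at 332 and 2971 CPM against 3.00 and 1.37 in the members, and did not pass (edgeR adjusted p = 0.104). It passed without control library 1 (-9.85) or control library 2 (-6.74), with 1 control sum left.

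Immediate-early and stress genes had 2 of 19 higher and 11 lower in the members than in the control cells, with a median of -1.18. The shares over all genes were 23.9% higher and 17.3% lower. Nr4a1 stood at 13.3 and 11.4 CPM against 156 and 104 (-2.93), Fos at 74.9 and 85.6 against 541 and 325 (-1.97), Junb at 122 and 121 against 750 and 553 (-1.95), and Fosb differed by -2.92. These genes are known to respond within minutes to tissue digestion as well as to signals in the living cell. The hepatocyte genes Serpina3k (-4.50) and Mup3 (-3.33) were lower as well. Of the hepatocyte markers 5 of 5 tested were lower, and of the endothelial markers 5 of 5. The 6 hepatocyte markers summed to 83.9 and 45.8 CPM in the members and to 302 and 357 in the control cells, and the mitochondrial share was lower in the members. The part of these markers and of the mitochondrial share in the result was not tested.

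**Figure D5:**
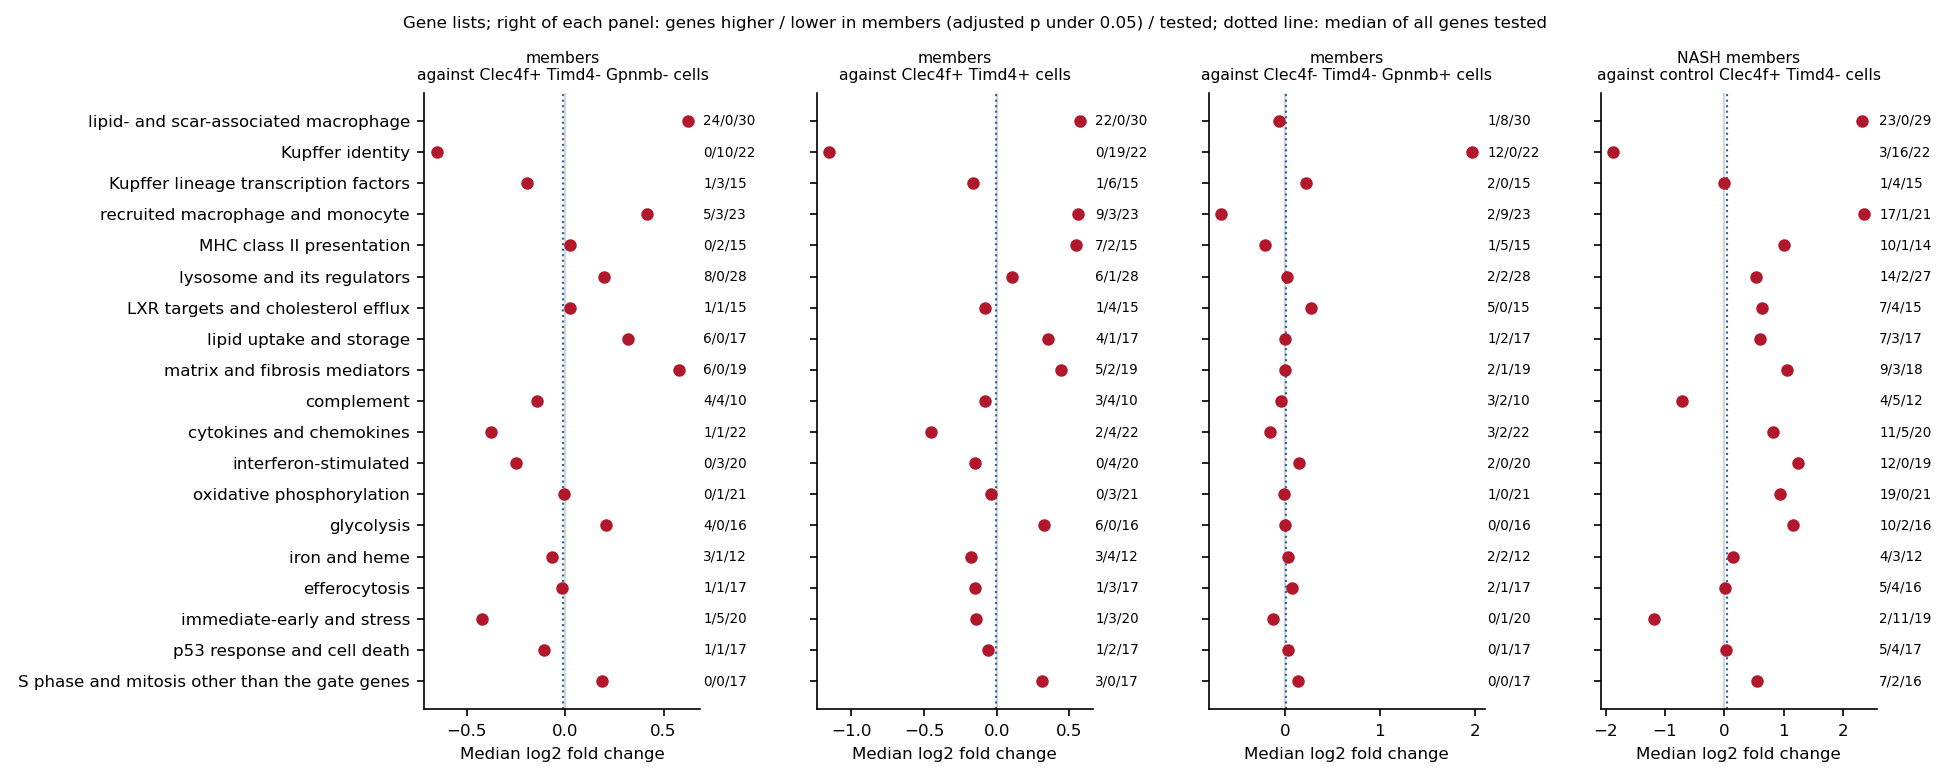
Median log2 difference (x axis) of 19 gene lists in the 4 comparisons, with the numbers higher, lower and tested beside each point and the median of all genes tested as a dotted line. The lipid- and scar-associated list lies at 0.62, 0.57, -0.06 and 2.31 from left to right, and the Kupffer identity list at -0.65, -1.15, 1.97 and -1.87.

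Markers of other cell types were also measured in the members. The 6 endothelial markers summed to 70.6 and 70.5 CPM in the members, 107 and 82.6 in the Clec4f+ Timd4- Gpnmb- cells and 224 and 185 in the control cells. The 5 B cell markers summed to 26.1 and 30.2 and the T cell markers to 13.3 and 13.7, against 9.18 and 5.57 in the Gpnmb- cells, with the rule having left out cells with Cd79a or Cd3 UMIs. Il7r, the T cell marker that could be tested, stood at 8.99 and 7.78 against 1.72 and 2.44 (1.99, edgeR adjusted p = 0.0154). It was higher than in the Timd4+ cells (2.31) and the control cells (2.08) too, the last not without control library 2 (1.66, edgeR adjusted p = 0.0815). The 6 markers of conventional dendritic cells summed to 30.0 and 27.5 against 17.8 and 18.8, and 1 of 4 tested, Cd209a, was higher (1.93, edgeR adjusted p = 0.0423). Against the NASH classes neither Il7r nor Cd209a passed without the library term. The 3 markers of plasmacytoid dendritic cells summed to 601 and 775 against 593 and 854, of which Bst2, an interferon-induced gene that many cells express, made 569 and 772 in the members. The 4 cholangiocyte markers summed to 1.71 and 1.83, with 2 of 4 at 0 in each library, and none of the 7 monocyte markers was at 0. Monocyte markers summed to 407 and 507 in the members against 573 and 794 in the Gpnmb- cells. Plac8 made 241 and 341 of the first sums and 464 and 652 of the second. Of 6 monocyte markers tested 0 were higher and 1, Plac8, was lower, with a median log2 difference of 0.16. Neutrophil markers stood apart in 1 library of each class, at 207 and 66.8 in the members and at 67.1 and 961 in the Gpnmb- cells. Erythroid markers did so too, at 141 and 1.83 and at 0.574 and 176. Their part in the differences was not tested.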

How the data were processed

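Sorted CD45+ CD146- liver cells of 2 control and 2 NASH libraries were measured by 10x Genomics single-cell RNA-seq. The deposited values were raw counts, UMIs per gene and barcode in 1 matrix per library. Cell Ranger, Seurat and the mm10 build are named in the submitters' processing notes, without versions. The matrices list 27998 genes and 6927 barcodes, and the authors' cell annotation was not used here.

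UMIs were summed per class and library. The 10 NASH sums (5 classes, 2 libraries) were fitted together with edgeR 4.0.16 (R 4.3.3) by quasi-likelihood, robust, with TMM factors, filterByExpr and the library as a term. Sums of 1 library come from the same suspension, and their deviations correlated across genes (r = 0.143, 0.192 and 0.156 for the members with each compared class). The diet comparison (4 sums) had no such term. The 12 genes of the rule and the mitochondrial genes counted in library sizes and were not tested. P-values were adjusted by Benjamini-Hochberg over all genes tested, with calls at 0.05. Each SE was the log2 difference divided by the square root of F. Values in parentheses after a gene are log2 differences unless said otherwise.

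Named genes were the 12 largest differences in each direction that passed with the same sign in both libraries (diet: no overlap) and reached 50 CPM in the higher group. Ribosomal protein genes, Gm-numbered and Rik genes and antigen receptor variable genes were counted in the tests and left out of this ranking. Members of the 19 gene lists and 13 marker lists could be named as well. Members and lists were chosen with earlier results of these data known. Scripts were tested on simulated data. Alternatives were DESeq2 1.42.0 and its size factors, library size alone, no expression filter, thinning to 3000 UMIs, stricter UMI minimums, removal of Scrublet scores (scanpy 1.11.5) or deep cells, other libraries or classes in the fit, and the library term. Those with at least 10 Clec4f UMIs and with library size alone were added after the data were seen.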

Additional observations from a re-analysis of the deposited data

How the results depend on the processing

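The number of genes called moved most. Against Clec4f+ Timd4- Gpnmb- cells it was 324, and 63 after thinning to 3000 UMIs, 136 with at least 10 Clec4f UMIs, 81 without the library as replicate block, 543 with only the compared classes in the fit and 98 with DESeq2. Against Clec4f+ Timd4+ cells it was 656, and 182, 200, 309, 826 and 222 under these settings, and 339 with at least 3 Clec4f and 2 Gpnmb UMIs. Against Clec4f- Timd4- Gpnmb+ cells it was 350, and 176, 772, 123, 445 and 117. Thinning left 5023 genes to test and the minimum of 10 Clec4f UMIs 7727, against 8374. Thinning also redrew the classes, with 128 and 134 members and 299 and 472 Clec4f+ Timd4- Gpnmb- cells in NASH libraries 1 and 2. In the diet comparison the number called was 3448, and 1023 after thinning (4697 genes), 2259 with at least 3 Clec4f and 2 Gpnmb UMIs, 1895 with at least 10 Clec4f UMIs and 1655 with DESeq2. Leaving out 1 library in turn gave 2414 to 3082. The control and NASH libraries share only numbers (same-numbered deviations correlated at r = -0.0597), and the replicate block gave 3117. The causes were not tested.

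The member share of C1q-high cells was 29.9% and 22.0% in NASH libraries 1 and 2, and 15.7% and 11.9% after thinning, 11.6% and 7.05% with at least 3 Clec4f and 2 Gpnmb UMIs, and 12.5% and 11.2% with at least 10 Clec4f UMIs. Other settings kept it within its interval. Among named genes, Cd5l changed sign in the diet comparison with library size alone (-0.23 against 0.25), and Vsig4 with at least 10 Clec4f UMIs (0.0202 against -0.42). Calls of single genes were lost more often than signs. Of the genes whose log2 differences are given against Clec4f+ Timd4- Gpnmb- cells, 28 of 51 no longer passed without the replicate block, 23 of 49 after thinning and 20 of 50 with at least 10 Clec4f UMIs. Against Clec4f+ Timd4+ cells these were 9 of 33, 6 of 32 and 17 of 32. Against Clec4f- Timd4- Gpnmb+ cells they were 8 of 37, 2 of 36 and 2 of 37. These totals take in genes that did not pass in the main fit, which have no call to lose. Genes not tested under a setting are left out of its total, so the share of calls lost may be higher. Within NASH, leaving out 1 library leaves no replicate, so log2 ratios were compared without a test. Genes named by rank were chosen to have the same sign in both libraries, so for them this holds by choice. Other named genes that passed also kept their sign, and those that did not pass were not judged. Depth limits low genes in the controls, at medians of 3204.5 and 2837 UMIs.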
